A study of Canis lupus familiaris with 23 samples.

Results

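Transcripts of 6 keratins were followed in dog skin, in hair follicles, in interfollicular epidermis and in organoids grown from them. KRT5, KRT14 and KRT15 are keratins of the basal epidermal layer, and KRT6A, KRT16 and KRT17 are keratins that keratinocytes make after wounding. The members were chosen by name, as 6 of the 21420 entries that occur in the deposited count lists. KRT5, KRT14, KRT15, KRT16 and KRT17 were listed under their own symbols. KRT6A was found through its RefSeq gene ID, since the lists carry it as LOC100687987. All 6 passed the filter on low counts.

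Keratins form filaments from pairs of one type II and one type I chain, and the pairing follows the layer and state of the epithelium. Basal keratinocytes, which lie on the basement membrane and divide, pair KRT5 with KRT14, and KRT15 is a further type I keratin of basal cells that is prominent in the bulge of the hair follicle. In the outer root sheath of the follicle and in epidermis that is wounded or overgrowing, the type II keratin KRT6A is found with the type I keratins KRT16 and KRT17.

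The study cultured dog keratinocytes as organoids, which grow as small bodies in a gel rather than as a sheet, and measured RNA by CEL-seq2, a method that counts tags from the 3' end of transcripts. There were 23 libraries in 12 groups. The 6 tissue libraries comprised 2 of whole skin, 2 of hair follicles in mixed anagen and telogen phase, and 2 of interfollicular epidermis. All organoid libraries came from bulk cells taken 7 days after culture.

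The follicle organoids in expansion medium were taken at passage 0 to 1 (early) or 3 to 6 (later). With a Tgf-beta inhibitor there were 3 early and 2 later libraries, and without it 2 early and 2 later libraries. The interfollicular organoids all had the inhibitor, with 1 early and 1 later library. The other 6 libraries were follicle organoids at passage 3 to 6 in differentiation medium, with 2 in the full medium, 2 lacking Noggin and R-Spondin-1, and 2 lacking Forskolin as well. The labels of these 6 name no inhibitor. The labels do not say which replicates came from separate dogs or cultures, so the p-values measure the spread between these libraries, which may be technical.

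Library totals ran from 86301 to 4822410 counts, and the mitochondrially encoded protein genes took 5.35% to 26.9% of them. The smallest library was the second of interfollicular epidermis, where 3 counts equal 35.5 CPM (counts scaled to a common library total). In that library KRT16 rested on 8 counts. The 6 differentiation libraries list 18113 entries and the other 17 list 20448, so for these 6 the making of the list and the medium cannot be told apart. Levels below are CPM scaled by edgeR's TMM factors. A difference is a log2 change from edgeR's quasi-likelihood test with its standard error (SE), and it counts as called when the p adjusted by Benjamini-Hochberg over all tested genes was below 0.05. In bulk RNA, fewer cells of a type and less RNA per cell cannot be told apart.

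**Figure D1:**
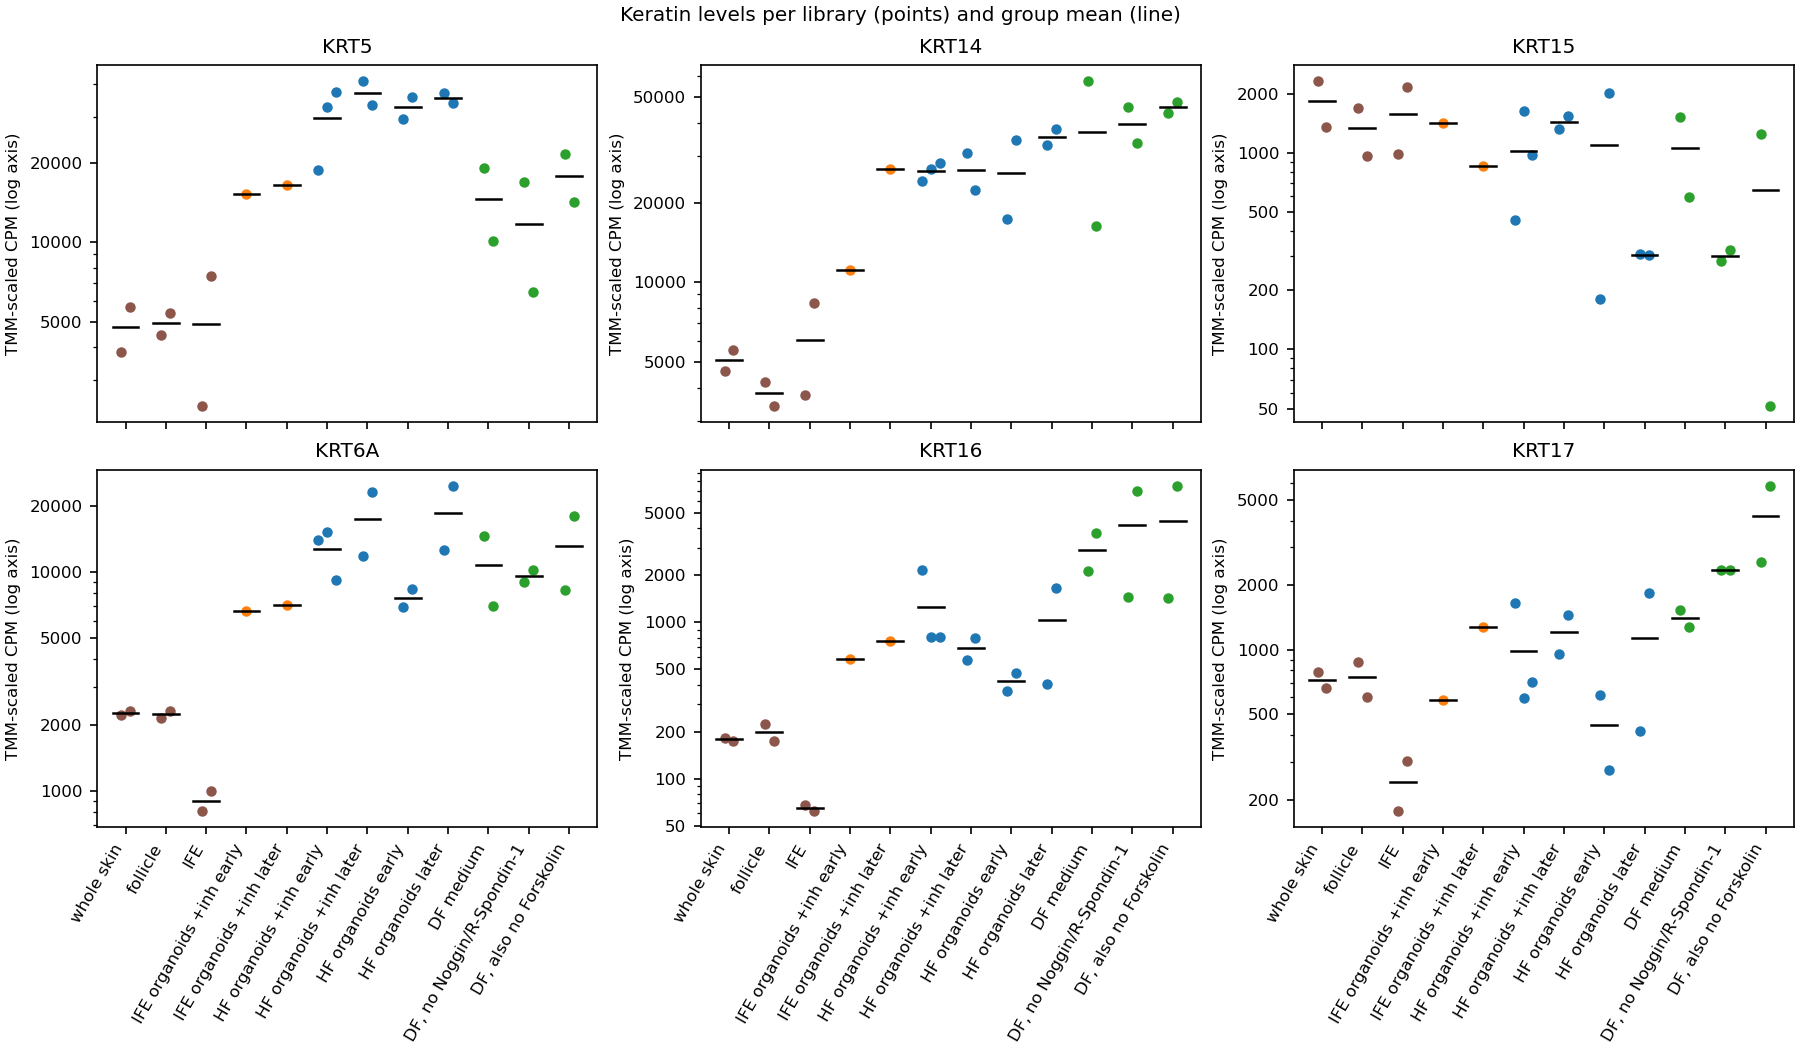
Levels of the 6 keratins in TMM-scaled CPM on log axes for the 12 groups, with 1 point per library and a line at the group mean; HF is hair follicle, IFE interfollicular epidermis, +inh with Tgf-beta inhibitor and DF differentiation medium. KRT14, KRT6A and KRT16 are lower in all 6 tissue libraries than in any organoid library, whereas KRT15 is widely spread with its highest mean in whole skin.

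In tissue, the values of the basal keratins overlapped between the 3 sources for KRT5 and KRT15 and between follicle and interfollicular epidermis for KRT14. KRT5 was at 3833 and 5687 CPM in the whole skin libraries, at 4461 and 5404 in the follicle libraries, and at 2386 and 7431 in the interfollicular ones. The interfollicular pair enclosed all 4 other tissue values. KRT14 was at 4622 and 5542 CPM, 4214 and 3400 CPM, and 3755 and 8335 CPM in the same order of sources. KRT15 was at 2303 and 1356 CPM, 1697 and 966.8 CPM, and 984.9 and 2150 CPM.

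The wound keratins were lowest in interfollicular epidermis. KRT6A measured 815 and 997 CPM there, against 2156 and 2334 in follicles and 2233 and 2313 in whole skin. KRT16 measured 68.1 and 62.3 CPM in interfollicular epidermis, 222 and 174 in follicles, and 183 and 175 in whole skin. KRT17 measured 178 and 304 CPM in interfollicular epidermis, 881 and 604 in follicles, and 789 and 663 in whole skin. For each of the 3, both interfollicular values lay below all 4 others.

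These differences did not pass the test across all genes. Between follicles and interfollicular epidermis 0 of the 6 keratins were called, against 2.79% of the 9888 genes tested. The log2 difference was 1.31 ± 0.48 (SE, adjusted p = 0.168) for KRT6A, 1.66 ± 0.63 (adjusted p = 0.182) for KRT17 and 1.58 ± 0.82 (adjusted p = 0.348) for KRT16. Between interfollicular epidermis and whole skin 0 of 6 were called, against 1.56% of genes, with log2 differences of −1.33 ± 0.48 for KRT6A, −1.62 ± 0.63 for KRT17 and −1.44 ± 0.82 for KRT16. With no filter on low counts KRT17 was called in both comparisons (adjusted p = 0.0166 and 0.0322), and with the compared groups alone in the fit KRT16 was called between follicles and interfollicular epidermis (adjusted p = 0.0481). Between follicles and whole skin edgeR called 0 of 6 keratins and 0.0% of all genes; 144 genes had an unadjusted p under 0.05, and DESeq2 also called 0.

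The tissues differed in other keratinocyte genes. Of 15 tested genes of the suprabasal layers, 5 were lower in follicles than in interfollicular epidermis and 0 were higher (median log2 difference −2.05, against 0.21 for all genes). Among them was KRT10, the type I keratin of cells that have left the basal layer, at 668 against 10830 CPM. KRT8 and KRT7, keratins of simple epithelia, were higher in follicles by 4.24 ± 0.63 and 2.62 ± 0.67. Of 15 tested basal and hemidesmosome genes only COL17A1, a collagen of the hemidesmosome, was called, lower in follicles by a log2 difference of −2.09 ± 0.50 (adjusted p = 0.0219).

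In organoids grown from follicles, the basal pair KRT5 and KRT14 and the wound keratins KRT6A and KRT16 rose, whereas KRT15 and KRT17 were not called. That is 4 of 6 keratins called, all higher, against 28.0% of genes called in either direction and 9.01% called higher. The comparison set the 4 groups of follicle organoids in expansion medium, weighted equally, against follicle tissue.

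KRT5 measured 18828, 32633 and 37292 CPM in the early organoids with inhibitor and 40818 and 33148 in the later ones. Without inhibitor it measured 29528 and 35649 CPM early and 36910 and 33851 later. All 9 values lay far above the 4461 and 5404 CPM of follicle tissue, and the log2 change was 2.76 ± 0.51 (SE, adjusted p = 0.000254).

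KRT14, the type I partner of KRT5, measured 24223, 26723 and 28330 CPM in early organoids with inhibitor and 30779 and 22426 in later ones. Without inhibitor it measured 17351 and 34552 CPM early and 32900 and 38138 later. No organoid value came near the 4214 and 3400 CPM of follicles, and the log2 change was 2.90 ± 0.49 (adjusted p = 0.000103).

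KRT15 did not follow the other basal keratins. It measured 454, 1633 and 979 CPM in early organoids with inhibitor, 1315 and 1537 in later ones with inhibitor, 180.5 and 2021 in early ones without, and 305 and 301 in later ones without. These values ran from below to above the 1697 and 966.8 CPM of follicles, and the log2 difference was −0.67 with a 95% interval from −2.09 to 0.74 (adjusted p = 0.498).

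KRT6A rose with the basal pair. It measured 14013, 15261 and 9178 CPM in early organoids with inhibitor and 11828 and 23263 in later ones. Without inhibitor it measured 6928 and 8335 CPM early and 12590 and 24732 later. The lowest of the 9 values lay above both follicle values, 2156 and 2334 CPM, and the log2 change was 2.58 ± 0.45 (adjusted p = 0.000131).

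KRT16 measured 2168, 804 and 812 CPM in early organoids with inhibitor and 579 and 798 in later ones. Without inhibitor it measured 365 and 473 CPM early and 404 and 1669 later. All 9 values exceeded the 222 and 174 CPM of follicles, and the log2 change was 1.99 ± 0.66 (adjusted p = 0.0275). The call was lost without the first follicle library (adjusted p = 0.127) and without the second (adjusted p = 0.224).

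KRT17 measured 1654, 598 and 704.5 CPM in early organoids with inhibitor and 959 and 1455 in later ones. Without inhibitor it measured 614 and 276 CPM early and 419 and 1841 later. These values lay on both sides of the 881 and 604 CPM of follicles, and the log2 difference was 0.24 with a 95% interval from −0.74 to 1.22 (adjusted p = 0.746).

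**Figure D2:**
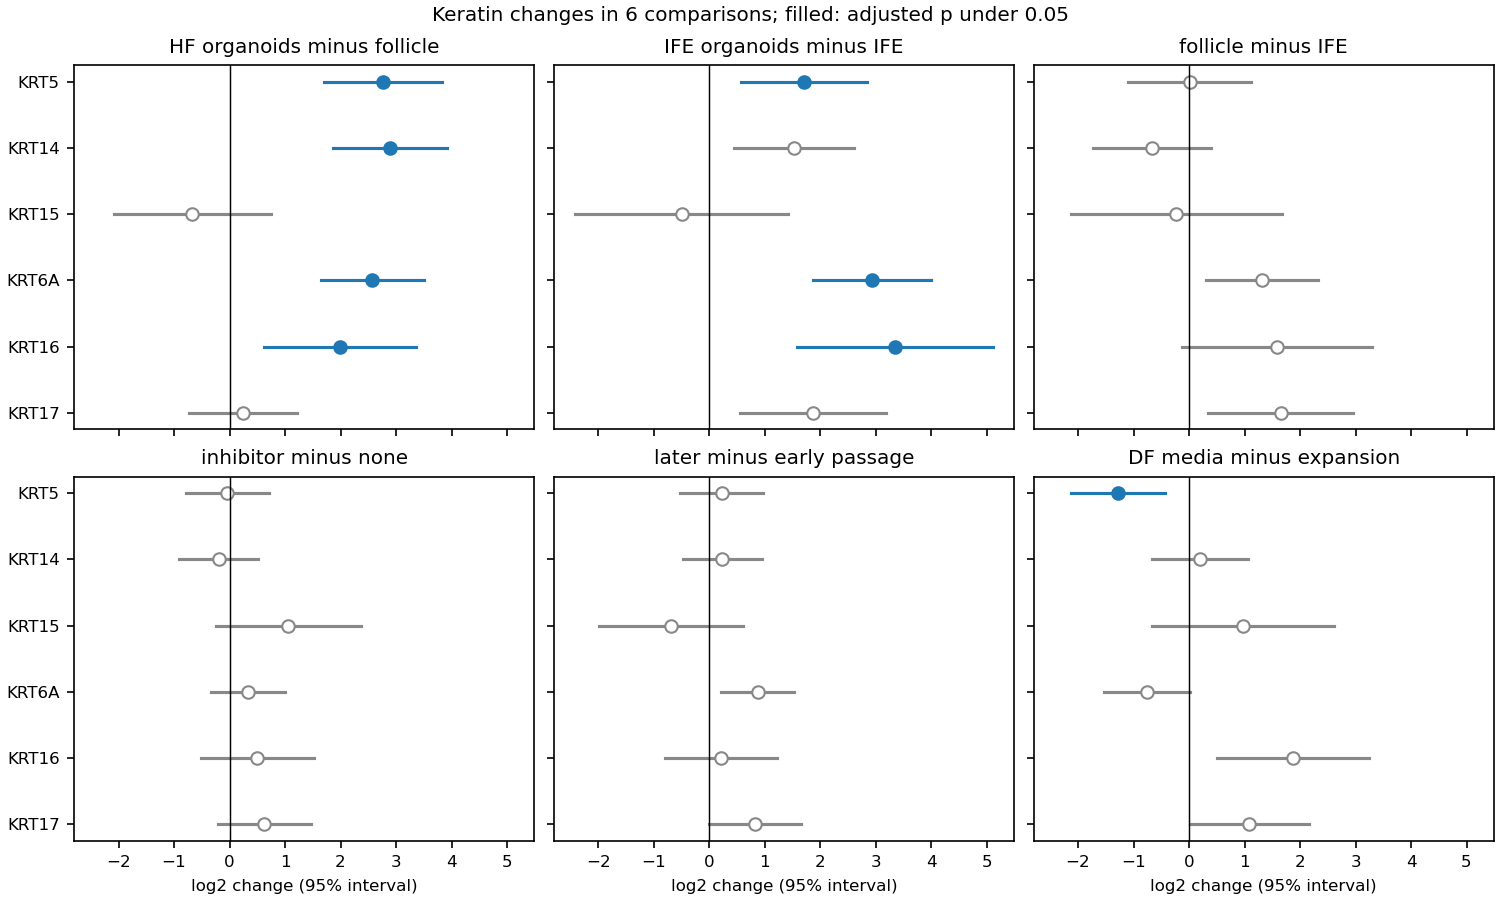
Log2 changes (points) and 95% intervals (bars) of the 6 keratins in 6 comparisons from the edgeR fit; HF is hair follicle, IFE interfollicular epidermis and DF differentiation medium, and filled blue points have an adjusted p under 0.05. In follicle organoids KRT5, KRT14, KRT6A and KRT16 are called higher, while the intervals of KRT15 and KRT17 cross 0.

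Genes that accompany these keratins were counted in lists. Of 15 tested basal and hemidesmosome genes, 7 rose and 1 fell in follicle organoids, with a median log2 change of 0.81 against 0.00 for all genes. COL17A1 rose by 2.80 ± 0.45, and ITGA3, an integrin chain that binds laminin, by 2.79 ± 0.49. ITGA6, the integrin chain of the hemidesmosome, rose by 1.94 ± 0.35, and LAMA3, a chain of the main laminin beneath basal keratinocytes, by 1.51 ± 0.31. DST, which encodes a plakin that ties keratin filaments to the hemidesmosome, fell by 1.23 on the log2 scale.

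Of 16 tested wound and hyperproliferation genes, 7 rose and 1 fell (median 1.62). S100A8 and S100A9, which form the calcium-binding protein calprotectin, rose by 4.13 ± 0.77 and 3.97 ± 0.92. HBEGF, a ligand of the EGF receptor, rose by 1.95 ± 0.38, and PTGS2, the inducible prostaglandin synthase, by 3.06 ± 0.53. KLK6, a serine protease of skin, was called lower, with means of 3.17 CPM in organoids and 8.14 CPM in follicles. The first early library with inhibitor was at 33.9 CPM of KLK6, above the 10.6 and 5.70 CPM of follicles. The other organoid libraries were at 0 to 2.76 CPM.

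Of 21 tested regulators of basal and wound keratin genes, 6 rose and 4 fell (median 0.20). Of all genes, 28.0% were called in this comparison and 9.01% were called higher. FOSL1, a subunit of the AP-1 transcription factor, rose from 7.48 to 76.5 CPM, a log2 change of 3.36 ± 0.50. KLF5, a transcription factor of proliferating keratinocytes, rose by 1.48 ± 0.26, and TFAP2C, an AP-2 factor, by 1.69 ± 0.36. GLI2, an effector of hedgehog signalling, fell by 3.15 on the log2 scale, and NR3C1, the glucocorticoid receptor, by 1.85. The fall of GLI2 was not seen in the early libraries without inhibitor, at 21.55 and 14.5 CPM against 15.9 and 14.6 CPM in follicles. The other organoid libraries were at 0 to 4.38 CPM of GLI2.

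Of 16 tested genes that anchor keratin filaments at desmosomes, 1 was higher and 4 were lower (median 0.37), a share close to the 28.0% of all genes called in this comparison. PKP1, a plakophilin, had a log2 change of 1.03 ± 0.37, whose call was lost without either follicle library (adjusted p = 0.132 and 0.301). DSC1 and DSG2, 2 desmosomal cadherins, had log2 changes of −2.39 ± 0.55 and −1.92 ± 0.46. The first early library without inhibitor was at 57.9 CPM of DSC1, above the 25.1 and 41.8 CPM of follicles. The other organoid libraries were at 1.14 to 17.2 CPM of DSC1. Among 10 tested partners and modifiers of keratins 2 rose and 0 fell (median 0.28). These were SFN, a 14-3-3 protein that binds keratins, from 1561 to 5785 CPM, and the chaperone HSPA8, from 897 to 2666 CPM. Of 17 tested cell cycle genes 5 rose and 0 fell (median 1.36), among them CDC20 by 2.78 ± 0.72 and CCNB1 by 1.80 ± 0.52.

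Keratins of other compartments were called in both directions. All 5 tested keratins of simple epithelia fell (median −5.03), KRT8 from 137 to 3.59 CPM and KRT7 from 138 to 3.70 CPM. Of 15 suprabasal genes 5 fell and 1 rose (median −0.21): FLG, the filaggrin precursor, fell from 597 to 85.1 CPM, and KRT10 rose from 668 to 2978 CPM. The first early library without inhibitor was at 13104 CPM of KRT10 and the other 8 organoid libraries at 548 to 3286 CPM. Without that library the KRT10 call was lost (adjusted p = 0.0754), as it was without either follicle library (0.267 and 0.154), the first later library without inhibitor (0.0702) or the second later one with it (0.0690). KRT75 and KRT42, 2 keratins close in sequence to the wound keratins, fell from 567 to 25.5 and from 15.8 to 0.823 CPM.

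Markers of other cells differed between tissue and culture as well. All 22 markers of the hair shaft and inner root sheath are listed, and their summed level was 10340 to 17780 CPM in whole skin and follicles, with at most 1 marker at 0, against 121 to 197 CPM in the 9 follicle organoid libraries, with 2 to 6 markers at 0. The 10 fibroblast markers summed to 3788 to 7918 CPM in skin and follicles, none at 0, and to 85.6 to 628 CPM in follicle organoids, with up to 3 at 0. The 7 smooth muscle markers summed to 1709 to 2964 CPM in skin and follicles and to 50.0 to 172.5 CPM in follicle organoids, with 1 or 2 at 0. The 7 listed immune markers summed to 127 to 733 CPM and to 3.0 to 11.0 CPM, with 2 to 6 at 0 in the organoids. The part of these cells in the keratin changes was not tested.

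In organoids from interfollicular epidermis KRT6A, KRT16 and KRT5 rose, and KRT14, KRT15 and KRT17 were not called. That is 3 of 6 keratins, all higher, against 11.2% of genes called in either direction and 6.73% called higher. The organoid side has 1 early and 1 later library, so their spread was taken from the other groups.

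KRT6A measured 6662 CPM in the early and 7061 in the later organoids, against 815 and 997 CPM in interfollicular epidermis. The log2 change was 2.92 ± 0.51 (SE, adjusted p = 0.000697). KRT16 measured 587 and 764 CPM against 68.1 and 62.3, a log2 change of 3.35 ± 0.85 (adjusted p = 0.0138). For both genes the organoid values lay well above the tissue values. The KRT16 call was lost without the first interfollicular tissue library (adjusted p = 0.134) and without the second (adjusted p = 0.0757).

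KRT5 measured 15257 and 16573 CPM against 2386 and 7431, and its log2 change of 1.70 ± 0.55 passed only narrowly (adjusted p = 0.0483). The call was lost with DESeq2's size factors (adjusted p = 0.0685), with scaling by totals (0.208), without the first interfollicular tissue library (0.337), without the early organoid library (0.103) and without the later one (0.108). KRT14 measured 11168 and 26886 CPM against 3755 and 8335, without overlap, and its log2 difference was 1.52 ± 0.52 (adjusted p = 0.0624). KRT17 measured 583 and 1274 CPM against 178 and 304, also without overlap, with a log2 difference of 1.87 ± 0.63 (adjusted p = 0.0607). Both were called with no filter on low counts and with the compared groups alone in the fit. Without the early organoid library KRT14 (2.17, adjusted p = 0.0264) and KRT17 (2.45, adjusted p = 0.0398) were called, and without the second tissue library KRT14 was (2.20, adjusted p = 0.0405). KRT15, at 1422 and 855 CPM against 984.9 and 2150, overlapped with tissue and had a log2 difference of −0.50 with a 95% interval from −2.42 to 1.42.

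Around these keratins, CDH3, the cadherin of basal keratinocytes, rose from 71.1 to 563 CPM, a log2 change of 3.05 ± 0.52. It was 1 of 2 basal and hemidesmosome genes of 15 that rose, with ITGA3, while DST fell (median of the list 0.33, against −0.14 for all genes). Of 16 wound and hyperproliferation genes 3 rose and 0 fell (median 2.12), namely S100A8 by 3.98 ± 0.85, S100A9 by 3.86 ± 1.19 and S100A12 by 3.79 ± 1.09. FOSL1 was at 0 in both interfollicular tissue libraries and at 74.9 CPM in the organoids. KLF4, a factor of keratinocyte differentiation, rose by 1.61 ± 0.37, and with FOSL1 it made up the 2 of 21 regulators that rose, close to the 6.73% of all genes called higher.

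Suprabasal genes fell in interfollicular organoids, 6 of 15 with 0 higher (median −3.09). KRT10 fell from 10830 to 713 CPM, and DSG1, the desmosomal cadherin of the upper layers, from 1133 to 116 CPM. The summed level of the 17 suprabasal genes was 18980 to 22990 CPM in interfollicular tissue and 4780 to 6342 CPM in the organoids. The 10 fibroblast markers summed to 1332 to 3779 CPM in interfollicular tissue and 202 to 946 CPM in the organoids, and the 7 immune markers to 732 to 793 CPM and 11.7 to 91.0 CPM. The 22 hair shaft and inner root sheath markers did not fall in the same way. They summed to 1890 and 148 CPM in the 2 tissue libraries, to 361 CPM in the early organoid library and to 2342 CPM in the later one, which lay above both tissue libraries. The part of these cells in the keratin changes was not tested.

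The difference between these 2 culture changes was tested with follicle and interfollicular organoids that both had the inhibitor. It was called for 0 of 6 keratins, against 3.96% of genes. The change in follicle organoids minus the change in interfollicular organoids was 1.28 ± 0.67 for KRT14 (adjusted p = 0.384) and 1.05 ± 0.70 for KRT5 (adjusted p = 0.532) on the log2 scale. It was −1.32 ± 0.79 for KRT17 (adjusted p = 0.469) and −1.11 ± 1.01 for KRT16 (adjusted p = 0.681). The 95% interval for KRT6A ran from −1.47 to 1.11. Other genes did differ between the 2 culture changes: COL17A1 by 3.33 ± 0.66 and KLF5 by 2.50 ± 0.43, each with the larger log2 change in follicle organoids. For KRT10 the difference was 4.76 ± 0.90. KRT10 was at 548 and 789 CPM in follicles and at 548 to 1380 CPM in follicle organoids with inhibitor. In interfollicular organoids it fell, from 8370 and 13281 CPM in tissue to 249 and 1177 CPM. Of 27 calls of named genes in this comparison, 21 were lost without some single library.

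Set against each other directly, interfollicular and follicle organoids with inhibitor differed in 0 of 6 keratins, against 6.36% of genes. The log2 difference, interfollicular minus follicle, was −1.13 ± 0.42 (SE, adjusted p = 0.149) for KRT6A and −1.06 ± 0.47 (adjusted p = 0.262) for KRT5. All 5 follicle organoid libraries with inhibitor lay above both interfollicular ones in these 2 genes. KLF4 was higher in interfollicular organoids, at 425 against 51.0 CPM, and HBEGF was lower, at 37.3 against 98.4 CPM. Markers of other cells were higher in interfollicular organoids: 12 of 19 tested hair shaft and inner root sheath markers (median log2 difference 2.43, against −0.33 for all genes), 3 of 10 fibroblast markers (median 1.76) and 1 of 6 smooth muscle markers (median 1.39). Without the later interfollicular library 0 markers of these 3 lists were called. The hair shaft and inner root sheath sum was 361 and 2342 CPM in the 2 interfollicular organoid libraries and 121 to 197 CPM in the follicle ones with inhibitor, and its part in the keratin differences was not tested. Without the later interfollicular library the number of genes called fell from 629 to 54.

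The Tgf-beta inhibitor was set against its absence in follicle organoids, early and later passages weighted equally. Of the 6 keratins 0 were called, against 2.68% of genes. The log2 difference, with minus without, was −0.04 for KRT5 (95% interval from −0.78 to 0.71) and −0.20 for KRT14 (from −0.91 to 0.52). It was 0.33 for KRT6A (from −0.34 to 0.996), 0.50 for KRT16 (from −0.52 to 1.52) and 0.62 for KRT17 (from −0.21 to 1.46). KRT15 had the widest interval, 1.06 with limits of −0.24 and 2.37, and was called with no filter on low counts (adjusted p = 0.0185).

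Of 16 wound genes outside the keratins, 5 were higher with the inhibitor and 0 lower (median 1.76, against 0.00 for all genes). The number higher fell to 2 or 3 without some single libraries, among them the first early library with inhibitor (3 of 15). The sum of the 21 wound genes was 38562 CPM in that library and 5465 to 8726 CPM in the other 4 with inhibitor, against 843 to 7489 CPM in the 4 without. HBEGF stood at 98.4 against 28.8 CPM, the cytokine IL1A at 78.9 against 16.3 CPM, and S100A12 at 6074 against 1108 CPM. The S100A12 call was lost without that library (log2 difference 1.64, adjusted p = 0.127) and without 6 of the other libraries. In the suprabasal list 2 of 15 were higher and 1 lower. IVL, a precursor of the cornified envelope, averaged 6501 against 753 CPM, with 24318 CPM in the first early library with inhibitor and 1675 to 4311 CPM in the 4 others. Its call was lost without that library (log2 difference 2.19, adjusted p = 0.0737) and without 5 of the other libraries. KRT10 averaged 909 against 5046 CPM, with 13104 CPM in the first early library without inhibitor and 1510 to 3286 CPM in the 3 others. Its call was lost without that library (−1.38, adjusted p = 0.101) and without the first later library with inhibitor (−2.09, adjusted p = 0.0780). COL7A1, the collagen of anchoring fibrils, was the only basal and hemidesmosome gene called, lower with the inhibitor at 9.96 against 80.4 CPM.

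Whether the inhibitor difference changed with passage was tested as an interaction. It was called for 0 of 6 keratins and for 0.0% of all genes with edgeR. Of all genes 267 had an unadjusted p under 0.05, and DESeq2 called 1. For KRT16 the interaction was −2.18 ± 0.99 on the log2 scale (unadjusted p = 0.0394, adjusted p = 1.00), and for KRT15 it was 2.35 ± 1.23 (unadjusted p = 0.0712). The 2 later libraries without inhibitor were far apart in KRT16, at 404 and 1669 CPM.

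Between later and early passages 0 of 6 keratins were called, against 0.354% of genes. KRT6A had a log2 difference of 0.87 ± 0.32 (adjusted p = 0.462) and KRT17 of 0.82 ± 0.40 (adjusted p = 0.711), later minus early. The 5 early values of KRT6A ran from 6928 to 15261 CPM and the 4 later values from 11828 to 24732 CPM, so they overlapped. For KRT17, KRT5, KRT14, KRT15 and KRT16 the 95% intervals included 0. KRT4, a keratin of stratified mucosa, averaged 45.8 CPM in later passages against 1.18 CPM in early ones. The second later library with inhibitor was at 162 CPM of KRT4 and the other later ones at 2.28 to 11.4 CPM, against 0.44 to 2.69 CPM early. GLI2 was lower in later passages at 0.496 against 11.01 CPM. All 6 calls of named genes between passages were lost without some single library.

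In differentiation medium KRT5 was lower than in expansion medium, while its partner KRT14 was not called. The first and second libraries of the 3 differentiation media stood apart, so values are given in that order for each medium. The 3 differentiation media, weighted equally, were set against later follicle organoids without inhibitor. Of the 6 keratins 1 was called, KRT5, lower, against 14.5% of 9732 genes called in either direction and 10.2% called lower.

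KRT5 measured 19162 and 10151 CPM in full differentiation medium, 16927 and 6496 when Noggin and R-Spondin-1 were left out, and 21634 and 14207 also without Forskolin. All 6 lay below the 36910 and 33851 CPM of the expansion medium. The log2 change was −1.28 ± 0.41 (SE, adjusted p = 0.0392). The call was lost with DESeq2's size factors (adjusted p = 0.0509), with the compared groups alone in the fit (0.123), and without either expansion library (0.222 and 0.126). It was also lost without the second library of the full medium (0.0777), of the medium lacking Noggin and R-Spondin-1 (0.0850) or of the medium also lacking Forskolin (0.0690). Without all 3 second libraries the log2 difference was −0.89 (0.175), and without all 3 first ones −1.90 (0.00277).

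KRT14 measured 57441 and 16347 CPM, 45957 and 33520 CPM, and 43664 and 48117 CPM in the same 3 media. These values enclosed the 32900 and 38138 CPM of the expansion medium, and the log2 difference was 0.20 with a 95% interval from −0.68 to 1.07. KRT15 measured 1523 and 599 CPM, 280 and 319 CPM, and 1241 and 51.4 CPM, against 305 and 301 CPM in expansion medium. Its lowest value, in the second library without Noggin, R-Spondin-1 and Forskolin, rested on 12 counts.

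Of the wound keratins, KRT16 measured 2127 and 3717 CPM in full differentiation medium, 1448 and 6940.5 when Noggin and R-Spondin-1 were left out, and 1437 and 7487 also without Forskolin. Expansion medium gave 404 and 1669 CPM, and 1669 lay within the differentiation values. The log2 difference was 1.87 ± 0.66 (adjusted p = 0.0604). KRT16 was called higher with DESeq2 (adjusted p = 0.0152), with no filter on low counts (0.000263) and when later organoids with inhibitor served as the expansion side (2.46, adjusted p = 0.0182). It was also called with the library number as a block within the differentiation media (1.62, adjusted p = 0.0188), without the second expansion library (3.20, adjusted p = 0.0430) and without the first library of any of the 3 media (1.99 to 2.12, adjusted p = 0.0494, 0.0220 and 0.0213). Without all 3 second libraries the log2 difference was 0.66 (adjusted p = 0.418), and without all 3 first ones 2.45 (adjusted p = 0.00259).

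KRT17 measured 1533 and 1277 CPM, 2360 and 2350 CPM, and 2567 and 5804 CPM in the 3 media, against 419 and 1841 CPM in expansion medium. The values overlapped, and the log2 difference was 1.09 ± 0.51 (adjusted p = 0.158). Without the second expansion library it was 2.49 and called (adjusted p = 0.0327), and without the first it was 0.39. KRT6A measured 14563 and 7026 CPM, 8989 and 10184 CPM, and 8256 and 17959 CPM, against 12590 and 24732 CPM. Its values overlapped too, with a log2 difference of −0.75 ± 0.37 (adjusted p = 0.174).

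Among regulators of these keratins 5 of 21 were lower in differentiation medium and 0 higher (median 0.18, against −0.14 for all genes), and 3 of 22 were lower without the 3 second libraries. FOS, an AP-1 subunit, stood at 3.64 against 143 CPM, KLF4 at 1.49 against 29.0 CPM and NFKB1 at 12.3 against 46.5 CPM. All 6 differentiation libraries lay below both expansion libraries for these 3 genes, although the FOS call was lost without the first expansion library (adjusted p = 0.0933).

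The cell cycle genes differed between the first and the second differentiation libraries. Their 19 genes summed to 1319, 1078 and 1310 CPM in the first libraries of the 3 media, within the 1769 and 1020 CPM of expansion medium, and to 152, 167 and 107 CPM in the second ones. Of 17 tested 4 were called lower and 0 higher over all 6 libraries (median −1.08). Without the second libraries 1 of 18 was lower, and without the first ones 17 of 18. The count of all genes called was also larger without the first ones than over all 6 libraries, as given below. CCNB1 was at 9.73 to 20.8 CPM in the first libraries and at 0 to 4.99 in the second, against 59.8 and 27.0 CPM in expansion medium. Its call was lost without the first expansion library (adjusted p = 0.175).

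The wound and suprabasal genes were split in the same way. The 21 wound genes summed to 5726 to 6374 CPM in the first libraries and to 17918 to 21056 CPM in the second, against 2325 and 7489 CPM in expansion medium. Of 16 tested 2 were higher and 1 lower, near the 14.5% of all genes called. PI3, an inhibitor of serine proteases, was at 448.5 to 628 CPM in the first libraries and 3928 to 5658 CPM in the second, against 15.1 and 143 CPM. SLPI, another such inhibitor, was at 904 to 1438 and 3677 to 8334 CPM, against 41.0 and 506 CPM. Both calls were lost without the 3 second libraries (adjusted p = 0.0663 and 0.171) and without the first expansion library (0.158 and 0.279), and that of SLPI also without the second library of any of the 3 media. PTGS2 was lower at 10.3 against 40.7 CPM.

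The 17 suprabasal genes summed to 3370 to 3664 CPM in the first libraries and to 12907 to 16720 CPM in the second, against 4606 and 5821 CPM in expansion medium. IVL made up most of the second sums, at 10051 to 12768 CPM. KRT10 was lower at 443 against 2398 CPM, with all 6 values, 225 to 636 CPM, below both expansion libraries, and its call was lost without the first of these (adjusted p = 0.0999). KRT80, a keratin of differentiating epithelia, was at 9.73 to 18.5 CPM in the first libraries and 59.97 to 218 CPM in the second, against 2.56 and 5.91 CPM. Its call was lost without the 3 second libraries (adjusted p = 0.213), without the second library of the medium lacking Noggin and R-Spondin-1 (0.0628) and without either expansion library (0.158 and 0.0603). KRT7 was higher at 35.7 against 2.34 CPM.

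Leaving growth factors out of the differentiation medium called 0 of 6 keratins in both steps. Without Noggin and R-Spondin-1, edgeR called 0.0% of genes, 260 genes had an unadjusted p under 0.05 and DESeq2 called 0. When Forskolin was left out as well, edgeR called 0.0% of genes, 328 had an unadjusted p under 0.05 and DESeq2 called 0. For the first step KRT15 had the difference with the lowest unadjusted p among the 6, −1.83 with a 95% interval from −3.81 to 0.15. For the second it was KRT17, 0.83 with an interval from −0.41 to 2.06. The first and second libraries of a medium differed widely: KRT16 ran from 1437 to 2127 CPM in the 3 first libraries and from 3717 to 7487 CPM in the 3 second ones. With the library number as a block within the 3 media edgeR again called 0 keratins and 0 genes in both steps. The first step was then −1.44 for KRT15 and 0.73 for KRT17, each with the same sign in the first and in the second libraries, and the second step 0.77 for KRT17.

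Ratios of counts within a library do not depend on how libraries are scaled. The log2 ratio of KRT14 to KRT5, partners in the basal filament, ran from −0.67 to 0.65 in the 6 tissue libraries and from −0.77 to 0.36 in the 9 follicle organoid libraries in expansion medium. In the 6 differentiation libraries it ran from 0.69 to 2.37, above all of these. The later interfollicular organoid library, at 0.70, reached into the differentiation range, and the early one was at −0.45. The ratio was 0.69 and 1.58 in the full medium, 1.44 and 2.37 when Noggin and R-Spondin-1 were left out, and 1.01 and 1.76 also without Forskolin.

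The log2 ratio of KRT16 to KRT6A, partners in wounded epidermis, ran from −3.84 to −3.27 in tissue and from −4.96 to −2.69 in follicle organoids in expansion medium. In differentiation medium it was −2.77, −2.63 and −2.52 in the first libraries of the 3 media. In the second libraries it was −0.92, −0.55 and −1.26. The ranges of expansion and differentiation medium overlapped only through the first early library with inhibitor, at −2.69. KRT6A alone entered this ratio. A neighbouring entry, LOC486523, held 14.6% to 28.1% of the summed counts of both in tissue and 41.9% to 60.2% in differentiation medium. The ratio with both entries summed was not computed. The log2 ratio of KRT15 to KRT14 ran from −2.03 to −1.0 in tissue and from −6.98 to −2.97 in all 11 expansion libraries, so tissue and culture did not overlap. It ran from −9.76 to −4.76 in differentiation medium.

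**Figure D3:**
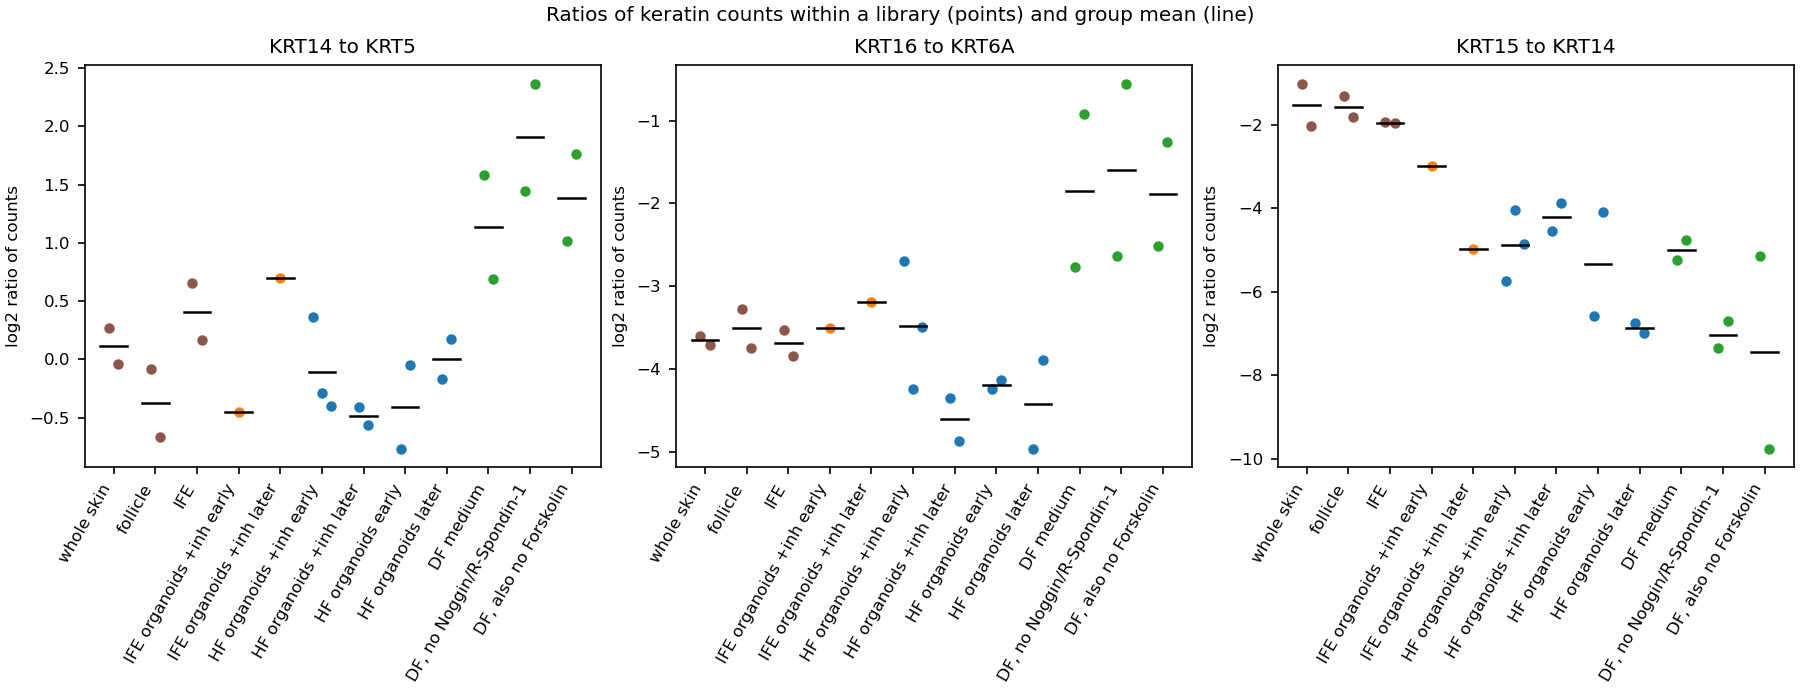
Log2 ratios of counts of 3 keratin pairs within each library (points), with group means (lines); HF is hair follicle, IFE interfollicular epidermis, +inh with Tgf-beta inhibitor and DF differentiation medium. KRT14 to KRT5 is 0.69 or more in the 6 differentiation libraries and at most 0.36 in the 9 follicle organoid libraries in expansion medium, and KRT15 to KRT14 is −2.03 or more in tissue and −2.97 or less in culture.

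Together the 6 keratins took 1.02% to 2.93% of all counts in tissue, 5.08% to 9.42% in follicle organoids in expansion medium, 3.89% and 4.005% in interfollicular organoids, and 3.84% to 9.26% in differentiation medium. The wound keratins made up 7.07% and 12.95% of the 6 in interfollicular epidermis and 20.02% to 24.2% in whole skin and follicles. Their share was 11.2% to 30.9% in follicle organoids in expansion medium, a range that enclosed skin and follicles. In differentiation medium it was 18.9%, 16.8% and 15.6% in the first libraries of the 3 media, below all skin and follicle values. In the second libraries it was 30.7%, 32.6% and 33.4%, above all of them.

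Ordered by group mean, the 6 genes had different peaks. KRT5 was highest in later follicle organoids with inhibitor (36980 CPM) and lowest in whole skin (4760 CPM), a ratio of 7.77. KRT14 was highest in differentiation medium lacking Noggin, R-Spondin-1 and Forskolin (45890 CPM) and lowest in follicles (3807 CPM), a ratio of 12.1. KRT15 ran from 1830 CPM in whole skin to 299.6 CPM after removal of Noggin and R-Spondin-1 from the differentiation medium, a ratio of 6.11.

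The wound keratins spanned wider ranges. KRT6A was highest in later follicle organoids without inhibitor (18660 CPM) and lowest in interfollicular epidermis (906 CPM), a ratio of 20.6. KRT17 ran from 4185 to 241 CPM, a ratio of 17.4, and KRT16 from 4462 to 65.2 CPM, a ratio of 68.4, both with the peak in differentiation medium lacking Noggin, R-Spondin-1 and Forskolin and the lowest mean in interfollicular epidermis. Few neighbours in these orders differed beyond their spread. Of the 7 or 8 adjacent pairs of groups with at least 2 libraries each, 1 did not overlap for KRT5, 1 for KRT14, 2 each for KRT6A, KRT16 and KRT17, and 0 for KRT15.

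Across the 12 group means, which share libraries and scaling factors among all genes, Pearson's r of log2 levels was 0.89 for KRT5 and KRT6A, 0.88 for KRT17 and KRT16, 0.87 for KRT14 and KRT6A, and 0.79 for KRT5 and KRT14. KRT15 had negative values with all 5 others, from −0.67 with KRT14 to −0.38 with KRT5. Among 4994 genes compared, the named genes closest to KRT5 were ACAT2 (r = 0.97), ND2 and RRM2, and those closest to KRT14 were PKM (0.97), SEPW1 (0.97) and RANGAP1. SFN (0.97) and the connexin GJB2 (0.97) were among the 5 closest to KRT6A, PDLIM7 (0.97) and UBL5 (0.97) were closest to KRT16, and DHRS4 (0.93) was among the 5 closest to KRT17. The closest to KRT15 was GBE1 at 0.81. These are descriptions over 12 points with no test.

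The count of KRT6A may be affected by a neighbouring entry, which was not tested. In RefSeq's order of dog genes LOC486523 lies between KRT75 and KRT6A. KRT6A had fractional counts in 19 of 23 libraries, and the sources used here do not say how fractions arose. LOC486523 took 14.6% to 28.1% of the summed counts of both entries in tissue, 25.1% to 41.3% in expansion medium and 41.9% to 60.2% in differentiation medium. The tissue and expansion ranges overlapped, and the differentiation range lay above both.

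**Figure D4:**
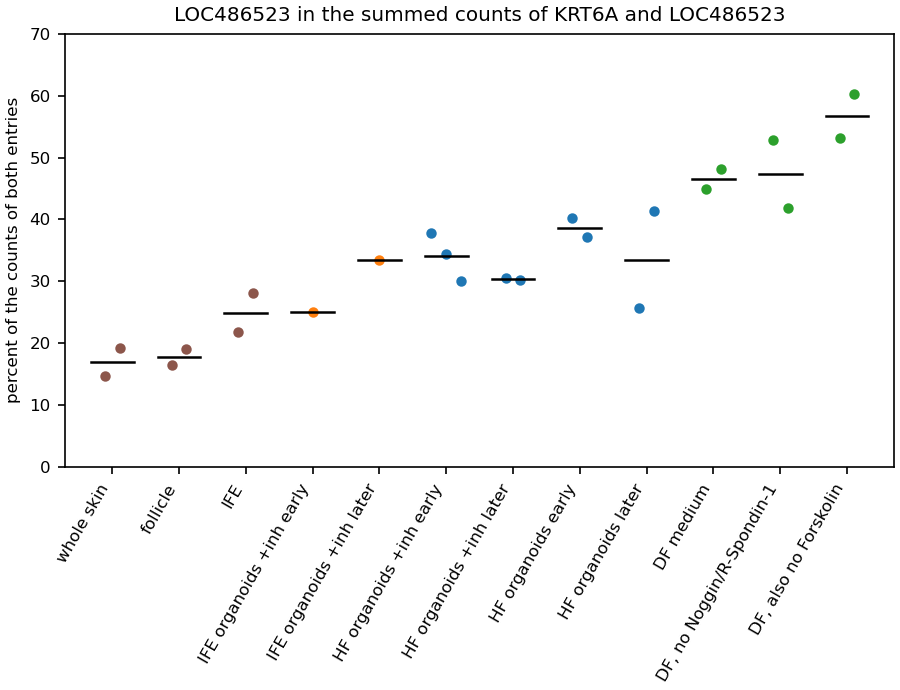
Percentage of the summed counts of KRT6A and LOC486523 that fell on LOC486523 in each library (points), with group means (lines); HF is hair follicle, IFE interfollicular epidermis, +inh with Tgf-beta inhibitor and DF differentiation medium. The share is 14.6% to 28.1% in the 6 tissue libraries and 41.9% to 60.2% in the 6 differentiation libraries.

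LOC486523 itself rose in follicle organoids by 3.88 ± 0.61 (adjusted p = 4.12e-05) and in interfollicular organoids by 3.22 ± 0.65 (adjusted p = 0.00261). With the 2 entries summed, the log2 change was 2.92 ± 0.50 (adjusted p = 0.000102) in follicle organoids and 3.00 ± 0.55 (adjusted p = 0.00109) in interfollicular organoids, so KRT6A was called either way. In differentiation medium the sum differed by −0.39 ± 0.41 (adjusted p = 0.548), against −0.75 for KRT6A alone. Across the 12 groups LOC486523 was also the third closest gene to KRT14 (r = 0.97).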

How the data were processed

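CEL-seq2 libraries of total RNA were sequenced as 75 base paired reads per the labels' protocols, and BWA 0.6.2-r126 and the build CanFam3.1 are named in the submitters' processing notes. The authors deposited 1 list of estimated counts per library, of which 4.91% to 10.6% of lines held fractions. How fractions and molecular identifiers were handled is not given in the sources used here. Counts were rounded, 4 entries that name no gene (0.461% to 2.16% of counts) were dropped, and 436 of 6691 provisional locus names were given symbols by RefSeq gene ID (assembly UU_Cfam_GSD_1.0, used for names and neighbours only). For 20 entries the name had become a calendar date, and these stayed unnamed.

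Genes were filtered with filterByExpr and scaled by TMM, and all 23 libraries were fitted with 1 mean per group (edgeR 4.0.16, R 4.3.3, quasi-likelihood F test, Benjamini-Hochberg, adjusted p under 0.05). The fit tested 9888 genes, 9732 in comparisons with differentiation libraries, in 13 contrasts of plain group means. The common dispersion was 0.0986 with 11 residual degrees of freedom. The fit was tested on simulated data. Ratios and correlations used log2 with a pseudocount of 1. Intervals cover the spread between libraries as the fit estimates it, and floors of 3 counts cover counting error only.

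The members and gene lists were chosen with earlier results of these data known. Named from each list were up to 4 called genes per direction by smallest p, or up to 2 where none was called, and beside each keratin genes from the 5 closest over 12 group means, of which some are not reported here. Alternatives were size factors, library totals, no filter, unrounded counts, DESeq2 1.42.0, the compared groups alone, a replicate block, libraries left out in turn, another expansion group, KRT6A summed with LOC486523, and scaling without mitochondrial genes and keratins. The last 2 were chosen after seeing the data, as were a block by library number within the 3 differentiation media and leaving out their first or second libraries together. Within these media the deviations of same-numbered libraries from their group means correlated at 0.45 to 0.58 over 5042 genes, so the numbers pair these 6 libraries; what a number stands for there is not given in the sources used here.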

Additional observations from a re-analysis of the deposited data

How the results depend on the processing

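The calls of KRT5, KRT14 and KRT6A in follicle organoids and of KRT6A in interfollicular organoids held under every alternative run, with log2 changes of 2.57 to 2.90, 2.70 to 3.08, 2.37 to 2.92 and 2.29 to 3.08. Of the keratin changes recomputed, 1109 kept direction and side of the threshold, 19 lost the call, 24 gained one and 73 turned sign. The calls of KRT16 in both cultures, of KRT5 in interfollicular organoids and of KRT5 in differentiation medium depend on single libraries, as given with those results. Of 237 calls of named genes from the lists, 135 were lost without some single library, among them 18 of 74 in follicle organoids and 19 of 28 in interfollicular organoids. Groups of 1 to 3 libraries limit the precision throughout, and KRT16 and KRT15 rest on few counts in the shallowest libraries. Scaling by totals moved the median of all genes in interfollicular organoids minus tissue from −0.14 to −0.70, and KRT5 there from 1.70 to 1.01; its cause was not tested. Summing KRT6A with KRT6B, KRT6C and KRT6L could not be run, since no entry carries these names.

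Keratins called changed in number with no filter on low counts to 1 (follicles minus interfollicular epidermis), 1 (interfollicular epidermis minus whole skin), 5 (interfollicular organoids minus tissue), 1 (inhibitor), 1 (inhibitor change with passage), 1 (interfollicular minus follicle organoids) and 2 (differentiation). Genes called became, in follicles minus interfollicular epidermis, 478 for 276; in follicles minus whole skin, 2 for 0; in interfollicular epidermis minus whole skin, 285 for 154; with the inhibitor, 639 for 265; in its change with passage, 39 for 0; between passages, 171 for 35; and in both withdrawal steps, 12 and 20 for 0. With the compared groups alone in the fit, keratins called became 1 in follicles minus interfollicular epidermis, 5 in interfollicular organoids and 0 in differentiation medium, and genes called became 465, 10 in follicles minus whole skin, 21 between passages and 236 for 1415 in differentiation medium. Keratins called in differentiation medium were 0 with DESeq2's size factors, 2 with DESeq2 and 2 against later organoids with inhibitor, and DESeq2 called 1 gene in the inhibitor change with passage. The cause of these moves was not tested.

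Replicate numbers are shared between groups. Over all groups they did not pair the libraries: deviations of same-numbered libraries had a correlation over 0.1 in 20 of 90 pairs (−0.44 to 0.58), and 12 of 21 libraries correlated best with their own number. With the replicate block, KRT5 lost its call in interfollicular organoids (adjusted p = 0.0831) and in differentiation medium (0.0585), KRT16 gained one there (0.0487), genes called between passages became 18, and the KRT16 difference between passages became −0.085. Within the 3 differentiation media the numbers did pair the libraries, and with a replicate block there 2 keratins were called against expansion medium, KRT5 (−1.36, adjusted p = 0.00889) and KRT16 (1.62, 0.0188), and 2120 genes for 1415; no keratin call changed in the withdrawal steps.

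These keratin differences, none of them called, turned sign. KRT5 in follicles minus interfollicular epidermis (0.01) was −0.18 with size factors and with DESeq2, −0.44 with totals, −0.013 with unrounded counts, −0.20 with the groups alone and −0.011 with mitochondrial genes and keratins left out of the scaling. With totals, KRT5 and KRT17 in follicles minus whole skin were −0.012 and −0.036, KRT15 in interfollicular epidermis minus whole skin 0.12, and KRT6A in the difference of culture changes 0.18. The last was 0.021 for KRT6A summed with LOC486523. KRT15 in interfollicular minus follicle organoids was 0.061 with size factors and with DESeq2, and in differentiation medium −1.27 against later organoids with inhibitor. Without the first libraries of the 3 differentiation media 2 keratins and 2494 genes were called against expansion medium, and KRT14 was −0.30 and KRT15 −0.55 there, KRT6A 0.54 in the first withdrawal step and KRT15 −2.65 in the second. Without the second libraries 0 keratins were called, and KRT14 and KRT16 were −0.35 and −0.58 in the first step and KRT14, KRT6A and KRT16 −0.075, −0.12 and −0.013 in the second.

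With libraries left out in turn, the number of keratins called ran from 1 to 4 in interfollicular organoids and from 0 to 2 in differentiation medium. Genes called ran from 113 to 170 in follicles minus interfollicular epidermis, from 64 to 109 in interfollicular epidermis minus whole skin, from 1389 to 2954 in follicle organoids, from 416 to 914 in interfollicular organoids and from 81 to 676 in the difference of culture changes. They ran from 109 to 303 with the inhibitor, from 9 to 53 between passages, from 54 to 818 in interfollicular minus follicle organoids and from 413 to 1676 in differentiation medium.

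Log2 differences that turned sign over left-out libraries, by comparison, were as follows. In follicles minus interfollicular epidermis KRT5 ran from −0.61 to 1.05, KRT14 from −1.15 to 0.017 and KRT15 from −0.71 to 0.43. In follicles minus whole skin KRT5 ran from −0.20 to 0.37, KRT6A from −0.053 to 0.023, KRT16 from −0.061 to 0.33 and KRT17 from −0.28 to 0.30. In interfollicular epidermis minus whole skin KRT5 ran from −0.99 to 0.67, KRT14 from −0.43 to 0.74 and KRT15 from −0.89 to 0.25. In follicle organoids KRT17 ran from −0.10 to 0.56, in interfollicular organoids KRT15 from −0.96 to 0.16, and in the difference of culture changes KRT15 from −0.30 to 0.82. With the inhibitor KRT5 ran from −0.15 to 0.069 and KRT14 from −0.41 to 0.074, and in its change with passage KRT5 ran from −0.021 to 0.42, KRT15 from −0.23 to 3.23 and KRT17 from −1.76 to 0.39. Between passages KRT15 ran from −1.12 to 0.61 and KRT16 from −0.45 to 0.56. In interfollicular minus follicle organoids KRT14 ran from −1.24 to 0.027, KRT15 from −0.73 to 0.48, KRT16 from −1.10 to 0.16 and KRT17 from −0.75 to 0.086. In differentiation medium KRT14 ran from −0.19 to 0.40 and KRT15 from −0.27 to 1.27. Without Noggin and R-Spondin-1 KRT5 ran from −1.17 to 0.21, KRT6A from −0.60 to 0.45, KRT14 from −0.53 to 1.28 and KRT16 from −1.02 to 1.25. Also without Forskolin KRT6A ran from −0.20 to 0.91, KRT15 from −2.53 to 2.07 and KRT16 from −1.53 to 1.64.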
